A study of Drosophila melanogaster with 3 samples.

Results

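The regions described here are 4272 promoter peaks of lower signal in a binding profile of Unplugged (unpg), a homeodomain transcription factor of the fruit fly Drosophila melanogaster. They were chosen by 2 measured criteria. A member is a peak of the pooled list that shares no base with any peak of the list thresholded by the irreproducible discovery rate (IDR, a measure of how reproducibly peaks rank across replicates). Its summit, the position of highest signal within the peak, also lies at most 500 bp from where transcription of some protein-coding gene starts (the transcription start site, TSS). The pooled list held 30000 peaks, of which 22103 shared no base with the IDR list and 4272 of those met the distance criterion. The other 17831 peaks outside the IDR list lay farther from any such start site. The 2636 promoter summits among the 7176 IDR peaks, found with the same distance rule, are the main comparison.

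Chromatin came from whole embryos, 4 to 16 hours old, of a transgenic line that stably expresses unpg with a C-terminal GFP tag, and was sheared by sonication to fragments of 200 to 800 bp. There were 3 biological replicates, numbered 3, 4 and 5, and 1 group, so conditions cannot be compared. The sample descriptions give an anti-GFP antibody while the antibody field reads unpg. The control was shared between replicates, and no precipitation from embryos lacking the tag entered the comparison, so the dependence of any peak on tagged unpg was not tested. A whole embryo holds many cell types, and binding in few cells cannot be told apart from weak binding in many. The lists give no read counts, so depth is unknown.

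Unplugged is known from the tracheal system, where it is needed for the cerebral branch, and from the embryonic brain. Homeodomains of its class typically recognise short AT-rich DNA words with a TAAT core. Fly promoters fall into broad types: those of widely expressed genes often carry the DNA replication-related element (DRE, TATCGATA, bound by the factor DREF) or Motif 1 (GGTCACACT, bound by M1BP), while promoters with a TATA box (TATAAA) are more common at regulated genes. Transcription factor profiles often hold many low peaks at promoters, and such peaks can come from direct contacts, contacts through other proteins or background.

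The summit windows below show the DNA in question: the summit base with 50 bases on each side, on the dm6 assembly, written 5′ to 3′ on the strand of the nearest gene. Capitals mark matches, on either strand, to any of 17 words searched, which are named with their shares further on. The first 6 are the members of highest signal whose window touches no annotated transcript. TrpRS-m, which encodes a mitochondrial tryptophanyl-tRNA synthetase, has its window at chr3L:17849622-17849722 on the plus strand. The window of CG10137 is chr2L:19526498-19526598, plus strand. That of mEFG1, a mitochondrial translation elongation factor gene, is chr2L:7223173-7223273, minus strand. That of zormin, which encodes a sarcomere protein, is chr3L:2152137-2152237, minus strand. The windows of CG9932 at chr2L:13060260-13060360 and of chif (chiffon, a Dbf4-related gene) at chr2L:16352691-16352791 are both on the minus strand.
TrpRS-m: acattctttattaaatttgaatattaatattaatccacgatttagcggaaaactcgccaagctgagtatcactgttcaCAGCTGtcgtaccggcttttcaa
CG10137: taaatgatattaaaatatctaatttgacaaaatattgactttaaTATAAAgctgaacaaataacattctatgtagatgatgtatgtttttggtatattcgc
mEFG1: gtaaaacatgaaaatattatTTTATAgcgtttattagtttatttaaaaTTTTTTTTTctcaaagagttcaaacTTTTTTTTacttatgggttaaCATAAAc
zormin: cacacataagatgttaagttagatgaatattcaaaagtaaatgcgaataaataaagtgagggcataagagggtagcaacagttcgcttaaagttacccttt
CG9932: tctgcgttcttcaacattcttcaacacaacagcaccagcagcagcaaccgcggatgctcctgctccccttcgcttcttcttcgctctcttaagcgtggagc
chif: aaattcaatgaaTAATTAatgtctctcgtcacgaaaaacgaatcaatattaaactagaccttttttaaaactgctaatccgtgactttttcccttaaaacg

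These 6 windows differed widely in composition, from 18.8% GC at mEFG1 to 54.5% at CG9932. The TAATTA homeodomain word was present at chif, an E-box (CAGCTG) at TrpRS-m and a TATA box word at CG10137 and at mEFG1, which also held A tracts and the word TTTATG, while the windows of zormin and CG9932 held none of the 17 words. The zormin peak had no overlapping peak in replicate 5 and the chif peak none in replicate 4.

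The next 3 windows are the members of highest signal that carry the DRE and touch no transcript, shown because this element became more frequent towards the strong end of the members. Klp67A, a mitotic kinesin gene, is at chr3L:9367143-9367243, minus strand. Atg3, which encodes a conjugating enzyme of autophagy, is at chr3L:18748553-18748653, plus strand. Sgt1, which encodes a co-chaperone, is at chr3R:8305310-8305410, minus strand. The last 3 are the strongest IDR promoter windows under the same limits, for contrast: CG14100 at chr3L:19590564-19590664, Art3 (a protein arginine methyltransferase gene) at chr3R:15229485-15229585 and CG5611 at chr3R:27636121-27636221, each on the minus strand.
Klp67A: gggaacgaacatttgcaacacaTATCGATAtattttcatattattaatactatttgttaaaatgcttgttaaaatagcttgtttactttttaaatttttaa
Atg3: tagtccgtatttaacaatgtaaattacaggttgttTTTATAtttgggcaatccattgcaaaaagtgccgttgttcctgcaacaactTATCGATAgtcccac
Sgt1: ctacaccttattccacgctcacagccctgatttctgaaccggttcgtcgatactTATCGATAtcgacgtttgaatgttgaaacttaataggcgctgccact
CG14100: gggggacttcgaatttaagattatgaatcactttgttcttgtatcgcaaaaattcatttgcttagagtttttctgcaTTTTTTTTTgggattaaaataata
Art3: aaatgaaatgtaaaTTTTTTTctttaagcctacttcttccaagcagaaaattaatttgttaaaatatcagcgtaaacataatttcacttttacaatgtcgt
CG5611: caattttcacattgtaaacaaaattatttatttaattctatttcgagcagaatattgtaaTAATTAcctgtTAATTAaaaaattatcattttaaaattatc

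The 3 IDR windows had 16.8% to 28.7% GC and no DRE. The DRE windows ranged from 21.8% GC at Klp67A to 45.5% at Sgt1.

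Signal, the authors' value for each peak, chose the members and is described only. It ran from 27.8 to 159 over the 4272 members, with a median of 68.4, against a median of 334 and a highest value of 8500 in IDR promoter peaks. The boundary is a rank in the pooled list and not a gap in the values. Just outside the IDR list stood TrpRS-m at a signal of 159.218, cert (a ceramide transfer protein gene) at 159.135 and Zyx (zyxin, a focal adhesion protein gene) at 159.121. Just inside it stood Dhpr, a dihydropteridine reductase gene, at 159.557 and cyp33, a cyclophilin gene, at 159.549.

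Of the 12 strongest members, 11 overlapped a peak in all 3 replicate lists of 30000 peaks each. The other, at CG12576, was at ranks 8596 and 9756 of replicates 4 and 5 and had no overlapping peak in replicate 3. The TrpRS-m peak, 55 bp upstream of the TSS, was at ranks 8753, 7549 and 8892 of replicates 3, 4 and 5. The cert peak, 64 bp downstream, was at ranks 9704, 7909 and 6108. These 2 peaks thus stood at similar ranks in every replicate. The peak at cno (canoe, an adherens junction protein gene), 69 bp downstream, was less even, at ranks 15894, 3985 and 5453, so that replicate 3 stood apart. Sema1a, a transmembrane semaphorin gene of axon guidance, had a summit 3 bp downstream of its TSS at ranks 7668, 6802 and 7165. At mam (mastermind, the Notch co-activator gene) the summit lay 83 bp upstream, at ranks 10632, 8521 and 3752. Rtnl1, a reticulon gene of the endoplasmic reticulum, had its summit 4 bp downstream at ranks 6065, 9768 and 10337. Both cno and Sema1a also had 1 IDR promoter summit, mam had 2 and Rtnl1 had 4, at whichever start sites of these genes. At the other end, the member of lowest signal, at tx (27.8), overlapped peaks in all 3 replicate lists, at ranks 17008, 9689 and 11108. The next lowest, at CG34296, overlapped none. An overlap of 1 bp counted, so the replicate peaks at tx may have their summits elsewhere. In 10 bins of members by signal, the share overlapping a peak in all 3 lists fell from 94.9% in the strongest to 22.7% in the weakest.

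Over all members, 2530 (59.2%) overlapped a peak in all 3 replicate lists, 1217 in 2 lists, 449 in 1 list and 76 in none. Here an overlap of 1 bp counted, so neighbouring members could share a replicate peak. When the overlap had to cover 50% of both peaks, 40.1% of members had a peak in all 3 lists. Replicate 3 held 3353 of the members, replicate 4 held 3546 and replicate 5 held 3574, at median ranks of 13754, 13209 and 13010. Of the members 1310 (30.7%) reached the highest −log10 q-value in the pooled list, 4.37, which every IDR promoter peak reached. Most members had one peak width, 364 bp: 4116 of 4272 (96.3%), against 533 of 2636 IDR promoter peaks (20.2%). The deposited lists do not say how this width arose, and since fixed-width peaks have their summit at the centre, results are given with and without the other widths where this changed them. Of the members, 1049 (24.6%) overlapped another member, leaving 3731 separate regions.

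The position of a summit within the promoter was not part of the choice, and it differed between the classes. Members centred on the start site, with a median 30 bp upstream of it, whereas IDR promoter summits had a median 114 bp upstream. In all, 2476 of 4272 members (58.0%, 95% Wilson interval 56.5 to 59.4) lay upstream of the nearest TSS, against 2061 of 2636 IDR promoter summits (78.2%, 76.6 to 79.7). The difference was −20.2 percentage points (−22.4 to −18.0; Fisher's exact test, two-sided, adjusted p = 1.75e-68 over 4 features). The 5′ UTR held 32.3% of members and 20.4% of IDR promoter summits, and 44.5% against 36.1% lay within 100 bp of the TSS. Peaks are not independent replicates, so these p-values describe the lists. In the 3 replicate lists, split in the same way by overlap with an IDR peak, the upstream share outside the IDR list was 58.9%, 57.4% and 55.8% in replicates 3, 4 and 5, against 78.2%, 75.6% and 74.5% for peaks that overlap it. The groups did not overlap, and the mean difference was −18.7 ± 0.557 points (SD, n = 3; exact sign-flip permutation test, two-sided, p = 0.25, the smallest that 3 replicates allow). Among fixed-width peaks alone the shares were 57.5% and 64.0%, a difference of −6.49 points (Fisher's exact test, adjusted p = 0.00585), so the gap was smaller among peaks of 1 width, and width and class cannot be told apart in these lists.

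**Figure D1:**
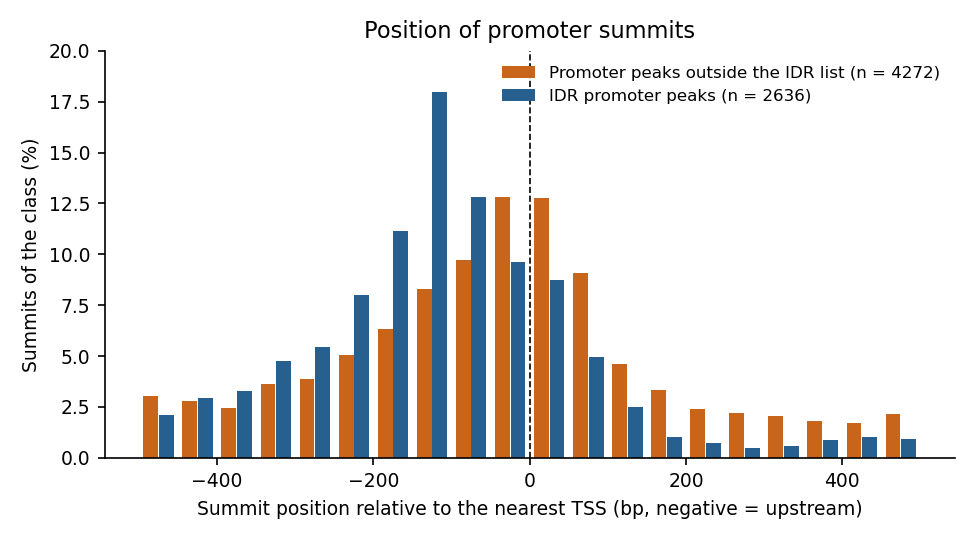
Percentage of summits in each 50 bp interval around the nearest TSS (x axis, bp, negative values upstream), for the 4272 promoter peaks outside the IDR list (orange) and the 2636 IDR promoter peaks (blue). The orange bars are highest in the intervals on both sides of the TSS, at 12.8% each, and the blue bars are highest between 150 and 100 bp upstream, at 18.0%.

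Members were less often at head-to-head gene pairs, in which neighbouring genes are transcribed away from each other from a shared upstream region. A summit was counted when the start sites of a minus-strand gene on the left and a plus-strand gene on the right both lay within 500 bp. This held for 491 members (11.5%, 10.6 to 12.5) and for 770 IDR promoter summits (29.2%, 27.5 to 30.98), a difference of −17.7 points (Fisher's exact test, adjusted p = 3.75e-74). Outside the IDR list the replicates had 13.5%, 13.8% and 14.1%, and among peaks that overlap it 29.6%, 28.7% and 29.2%. The difference among fixed-width peaks was −11.99 points, from 11.3% and 23.3%.

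Coding sequence held few summits of either class but more of the members. It contained 172 member summits (4.03%, 3.48 to 4.66) and 11 IDR promoter summits (0.417%, 0.233 to 0.746; Fisher's exact test, adjusted p = 3.28e-24). In the replicate lists the shares outside the IDR list were 6.29%, 4.75% and 4.64%, and those of peaks overlapping it 0.580%, 0.866% and 1.21%. The excess was in the lower ranks: in 10 bins of members by signal, the strongest had 0 of 428 summits in coding sequence (up to 0.890% by the Wilson interval), and the weakest had 11.01% (8.38 to 14.3). Restricted to members at the q-value ceiling the share was 1.30%, still above that of IDR promoter summits (exact adjusted p = 0.00380), and restricted to members found in both of the other replicates, leaving out each replicate in turn, it was 2.58% to 2.83%.

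**Figure D2:**
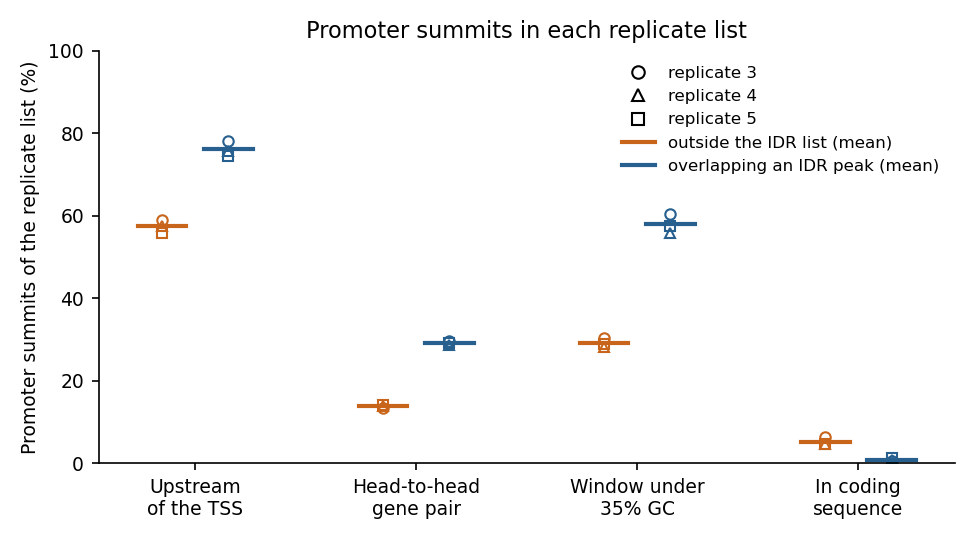
Percentage of promoter summits with each of 4 features (y axis) in the lists of replicates 3, 4 and 5 (circle, triangle, square), for peaks outside the IDR list (orange) and peaks overlapping it (blue), with horizontal lines at the means. The 2 classes do not overlap in any feature, for example 55.8% to 58.9% upstream of the TSS against 74.5% to 78.2%.

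Base composition differed between the classes, though little among peaks of the fixed width. Windows of members averaged 41.6% GC (SD 10.5 over 4272 windows) and those of IDR promoter summits 33.4% (SD 10.4 over 2636). Flank windows, centred 300 bp away on the higher-coordinate side only, had 41.9% and 43.6%. Windows under 35% GC made up 28.1% of the members (26.8 to 29.5) and 61.8% of IDR promoter windows (60.0 to 63.7; Fisher's exact test, adjusted p = 1.05e-168). GC outside the IDR list averaged 41.2%, 41.6% and 41.1% in replicates 3, 4 and 5, against 33.8%, 34.8% and 34.4% in peaks overlapping it, a difference of 6.96 ± 0.396 points (SD, n = 3; exact sign-flip permutation p = 0.25, the smallest possible). IDR promoter summits sat in a trough of AT-rich DNA, and members had none on average: averaged over the 11 bases at the summit, GC was 43.1% in members, 33.2% in IDR promoter peaks and 39.4% in other peaks outside the IDR list. Within the members, GC was lower upstream of the TSS (mean 40.2%, 2476 summits) than at or downstream of it (43.5%, 1796 summits).

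**Figure D3:**
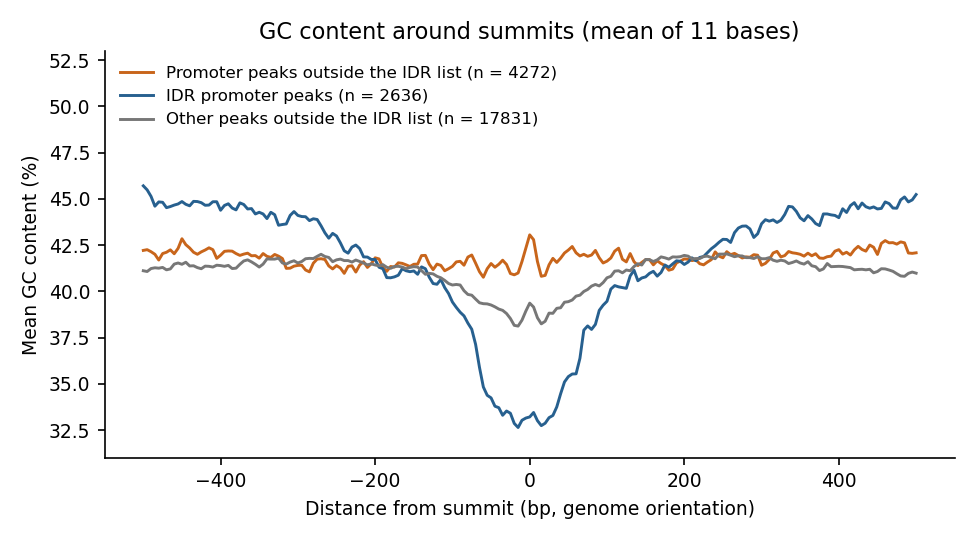
Mean GC content (y axis, percent, smoothed over 11 bases) against distance from the summit (x axis, bp) for members (orange), IDR promoter peaks (blue) and other peaks outside the IDR list (grey). The blue curve falls to 33.2% at the summit from 45.7% at 500 bp to the left, the grey curve to 39.4%, and the orange curve stays near 42%, with 43.1% at the summit.

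This difference also went with peak width. Among fixed-width peaks mean GC was 41.8% in 4116 members and 40.5% in 533 IDR promoter peaks, a difference of 1.27 points, and the share of windows under 35% GC was 27.2% and 31.3% (Fisher's exact test, adjusted p = 0.0505). The 156 members of other widths averaged 36.0% GC and the 2103 IDR promoter peaks of other widths 31.6%. The fixed-width IDR promoter peaks were themselves of low signal, with a median of 187 against 418 in the rest, so width, signal and GC cannot be told apart.

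The same features were followed along the order of signal, with no test of a step at the boundary between the classes. In 6 bins of the IDR promoter peaks, mean GC went from 28.1% in the strongest to 38.7% in the weakest. In the 10 bins of the members it went from 40.6% in the strongest to 42.8% in the weakest. The upstream share went from 86.8% to 68.6% over the IDR bins and from 62.1% to 49.4% between the strongest and weakest bin of the members. The head-to-head share went from 33.6% in the strongest IDR bin to 19.1% in the weakest, and was 17.8% in the strongest member bin and 8.20% in the weakest. Fixed-width peaks made up 1.14% of the strongest IDR bin, 70.6% of the weakest and 83.6% of the strongest member bin. From the weakest IDR bin to the strongest member bin, GC thus went from 38.7% (SE 0.507) to 40.6% (SE 0.546), the upstream share from 68.6% to 62.1% and the share of windows under 35% GC from 40.8% to 33.2%.

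**Figure D4:**
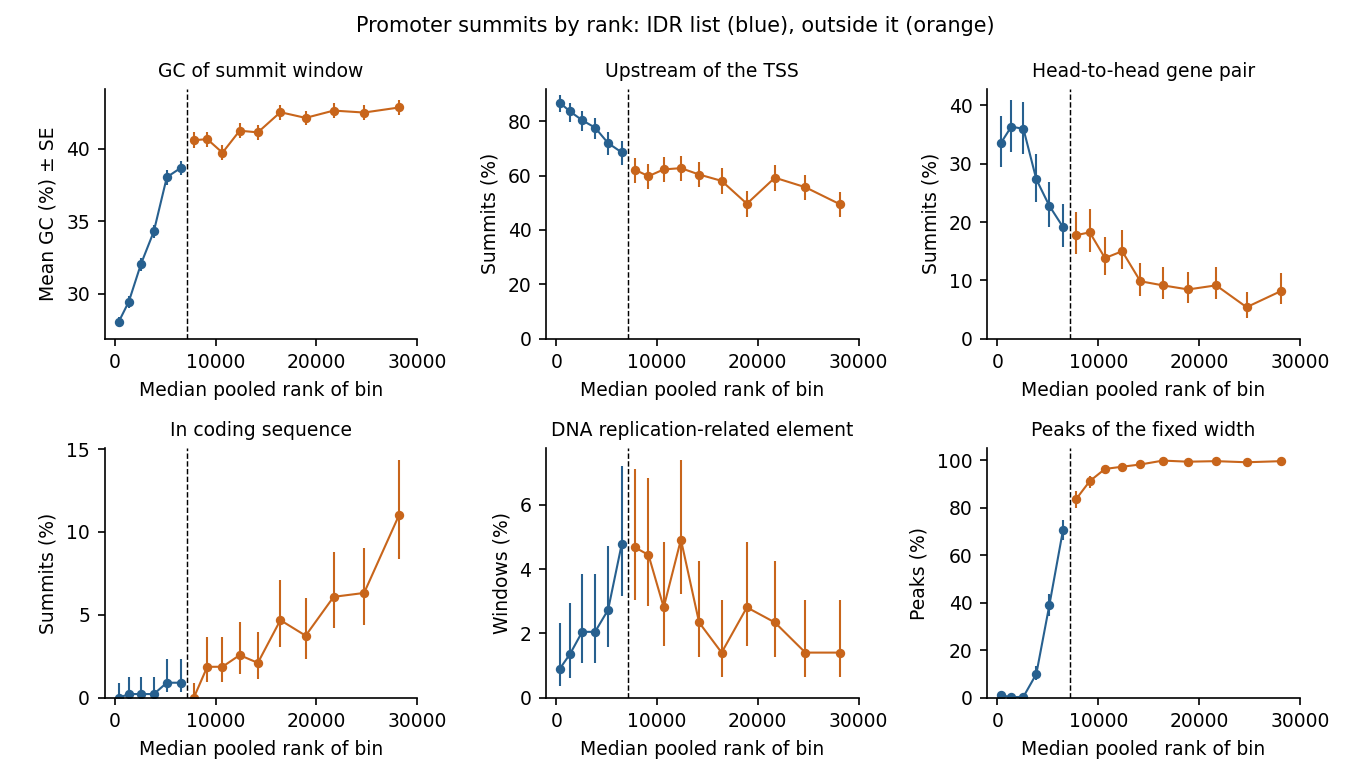
Each panel gives 1 feature (y axis, percent) for 6 bins of the IDR promoter peaks (blue) and 10 bins of the members (orange) against the median pooled rank of the bin (x axis), with 95% Wilson intervals, or the standard error for GC, and a dashed line between the classes. GC climbs from 28.1% to 42.8% across the line, and the DRE share is 0.909% in the strongest IDR bin, 4.78% in the weakest, 4.67% in the strongest member bin and 1.41% in the weakest.

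The words in the windows differed along with composition. Of 2080 6-mers, each counted with its reverse complement as present or absent in a window, 690 (33.2%) were more frequent in members and 303 (14.6%) less frequent (Fisher's exact test, adjusted over 2090 words). The former averaged 4.01 G or C bases and the latter 1.18. Stratified by 5 classes of window GC (Cochran-Mantel-Haenszel test, below called GC strata), 1 was higher and 5 were lower, and among fixed-width peaks 0 were higher and 7 lower. The highest ratio belonged to CGGAGA, in 3.58% of member and 0.948% of IDR windows (exact adjusted p = 3.70e-11), and the lowest to TATTAA, in 10.8% and 24.0% (adjusted p = 9.51e-44). With GC strata (Cochran-Mantel-Haenszel test, n = 4272 and n = 2636 windows) CGGAGA missed the threshold (adjusted p = 0.0542) and TATTAA kept it (adjusted p = 0.0391).

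Words of the homeodomain class were not more frequent in members. TAATTA, the palindromic homeodomain word, was in 6.34% of member windows (5.65 to 7.11), 5.88% of windows 300 bp away and 10.8% of IDR promoter windows (9.72 to 12.1; Fisher's exact test, adjusted p = 1.20e-09). It was in 6.537%, 5.93% and 6.90% of windows outside the IDR list in replicates 3, 4 and 5 and in 11.2%, 9.80% and 10.5% of those overlapping it. Members thus held it about as often as their own flanks. The difference from IDR windows did not pass with GC strata (adjusted p = 0.955) or among fixed-width peaks, at 6.24% and 6.19% (Fisher's exact test, adjusted p = 1). CAATTA, a related homeodomain word, was in 8.94% and 10.2% (exact adjusted p = 0.132), with 9.13% in the member flanks. TTTATG, a word of Abd-B and Caudal proteins, was in 9.60% against 12.9% (exact adjusted p = 1.56e-04, and 0.942 with GC strata). Among fixed-width peaks it was in 9.38% and 9.76% and did not pass.

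Core promoter words were counted anywhere in the window, with no set position relative to the TSS, so a match need not be a working element. The TATA box word TATAAA was in 14.3% of member windows and 24.4% of IDR windows (Fisher's exact test, adjusted p = 1.55e-23), against 11.9% and 11.3% in their flanks. With GC strata (n = 4272 and n = 2636 windows) the adjusted p was 0.922. Among fixed-width peaks TATAAA was in 14.0% and 14.8% (Fisher's exact test, adjusted p = 0.983). The DRE was at 122 member summits (2.86%, 2.40 to 3.40) and at 11 of the windows 300 bp away (0.257%, 0.144 to 0.461). In IDR promoter windows it was at 2.31%, against 0.569% in their flanks, and the classes were not separated (exact adjusted p = 0.278). Against the 1318 strongest IDR promoter peaks the DRE was higher in members, at 2.86% and 1.44% (exact adjusted p = 0.00833). It was also higher in members at the q-value ceiling (3.97% and 2.31%, exact adjusted p = 0.0235). The same held for members of genes without an IDR promoter summit (3.51% and 2.31%, exact adjusted p = 0.0223). Its direction depended on the peaks compared, as the fixed-width peaks below also show. Motif 1 was at 1.404% of member windows and 0.187% of their flanks, and at 1.59% of IDR windows (exact adjusted p = 0.642). In the 1318 strongest IDR promoter peaks Motif 1 was at 0.607%, below its share in members (exact adjusted p = 0.0405). Both elements were thus more frequent at member summits than in the flank windows. No control matched for distance from the TSS was used, so the part of that distance was not tested.

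Within fixed-width peaks Motif 1 was less frequent in members, and the DRE did not pass. Motif 1 was in 1.46% of member windows and 5.07% of IDR windows (Fisher's exact test, adjusted p = 3.31e-04). The DRE was in 2.96% and 5.44% (exact adjusted p = 0.283). The 7 6-mers lower in members here, named after their values were seen, included GTCACA, which lies within Motif 1, at 4.98% against 12.01% (exact adjusted p = 9.36e-06). Another was CGATAG, which overlaps the DRE sequence by its first letters CGATA, at 6.07% against 12.8% (exact adjusted p = 1.36e-04).

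Other words differed as well. The GAGA factor word GAGAGAG was in 3.04% of members and 1.21% of IDR windows (Fisher's exact test, adjusted p = 4.13e-06), with 2.69% and 3.15% in the flanks. The CA repeat CACACAC was in 5.41% and 1.97% (exact adjusted p = 1.20e-11), with 6.13% and 5.46% in the flanks. E-boxes, bound by basic helix-loop-helix proteins, were also higher in members: CAGCTG in 5.92% against 3.91% (exact adjusted p = 8.75e-04) and CAGGTG in 3.32% against 1.97% (adjusted p = 0.00312). None of these 4 words passed with GC strata, with adjusted p from 0.112 to 0.921, and their low share at IDR summits lay below that of the IDR flanks. Among fixed-width peaks none of them passed either. There GAGAGAG was in 3.09% and 2.63%, CACACAC in 5.47% and 3.75%, CAGCTG in 5.86% and 5.82% and CAGGTG in 3.30% and 3.00%. The A tract AAAAAAA was in 10.3% of members and 12.8% of IDR windows (exact adjusted p = 0.00540, and 0.296 with GC strata). Among fixed-width peaks it was in 10.3% and 10.1% and did not pass. The CACGTG E-box, the Motif 5 word CAGCTGTT, the Zelda word CAGGTAG, the GATA word AGATAAG, the AP-1 word TGACTCA and the ETS palindrome TTCCGGAA did not pass. Their shares in members were 1.15%, 2.01%, 0.492%, 1.24%, 0.843% and 0.140% in that order.

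Among the members themselves, AT-rich words and words that overlap the DRE were more frequent in the stronger peaks. The 4272 members were divided at the median signal into a stronger and a weaker set of 2136. Of the 2080 6-mers, 17 (0.817%) were more frequent in the stronger set and 11 (0.529%) less frequent. Of the 17, 10 hold at most 1 G or C base, such as AAAATT, in 20.4% of stronger and 14.5% of weaker windows (Fisher's exact test, adjusted p = 2.49e-04). Mean GC of the windows was 40.7% in the stronger and 42.5% in the weaker set, and with GC strata 9 words were higher, of which 1 holds at most 1 G or C base. TATCGA, the first 6 letters of the DRE, was in 10.96% of stronger and 6.23% of weaker windows (Fisher's exact test, adjusted p = 8.38e-05). CGATAG was in 7.91% and 4.07% (exact adjusted p = 1.49e-04). These 2 words passed in each alternative run of this comparison. The whole DRE was in 3.84% and 1.87% (exact adjusted p = 0.0166). Leaving out each replicate in turn, and keeping only members found in both of the others, it did not pass (exact adjusted p from 0.0539 to 0.0944). Nor did it pass within 250 bp of the TSS (exact adjusted p = 0.0936) or between the 1068 strongest and 1068 weakest members (0.0556). All of these comparisons had fewer windows. CACGTC was in 3.51% and 1.59% (exact adjusted p = 0.0114) and CCGTTC in 5.24% and 2.81% (adjusted p = 0.00927). ATCCTG was lowest in the stronger set, at 0.655% against 2.15% (exact adjusted p = 0.00782), and CCAGGA was in 0.655% against 2.11% (adjusted p = 0.00927). When members had to be found in both of the other replicates, 3077, 2864 and 2866 were kept, and 3 to 6 6-mers passed in all. Signal, summits and the IDR list stayed those of all 3 replicates, so these runs do not show what 1 replicate contributed. This restriction fell more on weaker members: 83.9% of the stronger and 34.6% of the weaker set were in all 3 lists. The stronger set also had more summits upstream of the TSS (61.5% against 54.4%), more at head-to-head pairs (14.9% against 8.05%) and fewer in coding sequence (1.69% against 6.37%).

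Members with the DRE were at 121 genes and close to the start site. Of the 122, 108 (88.5%) lay within 100 bp of the TSS, against 43.2% of the other 4150, and 32.0% were at head-to-head pairs, against 10.9%. Mean GC was 39.2% with the element and 41.7% without it. In all 3 replicate lists were 82 (67.2%) of them, against 59.0% of the others. The strongest was at Axs, a gene of spindle and segregation, with its summit 4 bp downstream of the TSS at ranks 6254, 13523 and 9785 of replicates 3, 4 and 5. The next was at mod(mdg4), which encodes chromatin proteins including an insulator component, 16 bp upstream, at ranks 10721, 8874 and 3880. Klp67A followed, 147 bp upstream, at ranks 6555, 8520 and 13571. No replicate was highest at all 3 genes. Among the 10 strongest were 3 genes of autophagy: Atg8a, which encodes the ubiquitin-like protein of the autophagosome membrane, at 55 bp downstream, Atg14, a subunit gene of the lipid kinase complex, at 15 bp upstream, and Atg3 at 84 bp upstream. These genes were named after their values were seen, and no test was made on them.

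Set against the other 17831 peaks outside the IDR list, members were found more often in the replicate lists. A peak in all 3 lists was overlapped by 59.2% of members (57.7 to 60.7) and 43.2% of the others (42.4 to 43.9), a difference of 16.1 points (Fisher's exact test, adjusted p = 1.86e-79 over 3 features). When the overlap had to cover 50% of both peaks, the shares were 40.1% and 28.6%. Members were higher in signal, with a median of 68.4 against 50.4, and in outside peaks above the median signal the difference was 4.51 points (76.5% against 72.0%, exact adjusted p = 5.44e-06). Stratified by signal decile it still passed (Cochran-Mantel-Haenszel test over n = 4272 and n = 17831 peaks, adjusted p = 1.39e-06). The q-value ceiling was reached by 30.7% of members and 16.8% of the others. It was among the 3 features tested, but it follows signal, so no conclusion is drawn from its test. An IDR peak lay within 1 kb of 22.9% of members and 19.1% of the others (exact adjusted p = 1.86e-08). This difference of 3.88 points ranged from 1.87 points among peaks found in both replicates 4 and 5 (exact adjusted p = 0.0284) to 8.23 points with promoters taken as 1000 bp (adjusted p = 1.53e-42).

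The members were spread over 2993 of 13945 protein-coding genes (21.5%), taking the gene of the nearest TSS, while IDR promoter summits were at 2376 (17.0%). Of these genes 2417 had members and no IDR promoter summit, 1800 had IDR promoter summits alone, and 576 had both. The remaining 9152 had neither. Genes with both were long, with a median of 11559 bp and a mean of 3.29 start sites, against 3283 bp and 1.62 for genes with members alone and 1780 bp and 1.21 for genes with neither. A gene with more start sites has more DNA within 500 bp of one, and its part in the counts was not tested. One member was found at 2117 genes, 2 at 635 and 3 or more at the rest, up to 9.

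SNF4Agamma, which encodes the regulatory gamma subunit of AMP-activated protein kinase, had 9 members and 4 IDR promoter summits over 73531 bp and 11 start sites. Its strongest member, 109 bp upstream of a start site, was at ranks 5785, 7919 and 17638 of replicates 3, 4 and 5, and its weakest was in no replicate list. Kank, a gene with ankyrin repeats, had 8 members and no IDR promoter summit. CG6231, CG9331, Imp (an mRNA-binding protein gene), Svil (supervillin, an actin-binding protein gene) and nuf (nuclear fallout, a gene of recycling endosomes) had 7 each, and CAP, an adaptor protein gene of adhesion sites, had 6. Their start sites numbered 5 to 16, and CG9331 was the shortest of them, at 4917 bp. The tagged gene unpg had no member, and its promoter peak belonged to the IDR list.

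Gene lists were chosen with earlier results of these data known and are given as counts, with no test. Beside them stands the 21.5% of all protein-coding genes that had a member. Their intervals are not adjusted over the 23 lists, and gene length and the number of start sites were not accounted for. In replicates 3, 4 and 5, a promoter peak outside the IDR list was at 24.4%, 25.6% and 26.8% of all protein-coding genes. The counts per replicate below stand beside these shares. Cytoplasmic ribosomal protein genes were at the low end: 8 of 86 (9.30%) had a member, whereas 72 of 86 (83.7%) had an IDR promoter summit. In replicates 3, 4 and 5 the promoter peaks outside the IDR list were at 11, 10 and 10 of them. The strongest was RpS24, at a signal of 145 and ranks 8823, 14490 and 7413. Mitochondrial ribosomal protein genes had members at 6 of 73 (8.22%) and IDR promoter summits at 14, with mRpL22 the strongest (signal 93.1). Genes of the nuclear-encoded respiratory chain and ATP synthase had members at 24 of 87 (27.6%, 19.3 to 37.8) and IDR promoter summits at 20. They were led by ND-13A of complex I at ranks 8002, 9339 and 11590 and by UQCR-14 of complex III at ranks 7758, 5972 and 11231. The interval of this list held the share of all genes.

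In lists of genes of other basic cell processes, stress and chromatin, the share with a member ran from 12.1% to 38.7%. Members were at 7 of 48 proteasome subunit genes (14.6%), led by Rpt2 (signal 157; ranks 7163, 13676 and 7342). They were at 10 of 51 translation factor genes (19.6%), led by eIF2beta (signal 153), and at 4 of 33 aminoacyl-tRNA synthetase genes (12.1%), led by TrpRS-m. DNA replication genes had members at 9 of 37 (24.3%) and IDR promoter summits at 3, led by geminin, an inhibitor of replication licensing, at ranks 6316, 12605 and 9346. Spliceosomal snRNP genes had members at 5 of 22 (22.7%) and heat shock protein genes at 4 of 25 (16.0%). Polycomb and trithorax group genes had members at 12 of 31 (38.7%, 23.7 to 56.2). Caf1-55, a histone-binding subunit gene, led the last list at ranks 6248, 10326 and 6817.

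Cell cycle regulators had members at 10 of 25 (40.0%, 23.4 to 59.3) and IDR promoter summits at 5. In the replicates, promoter peaks outside the IDR list were at 11, 14 and 15 of them. They included dap (dacapo, a cyclin-dependent kinase inhibitor), with ranks 8405 and 5652 in replicates 3 and 4 and no overlapping peak in replicate 5. E2f1, a transcription factor of the S phase, was at ranks 9092, 9393 and 5672, and CycA, a mitotic cyclin, was missing from replicate 3 and at ranks 9923 and 5249 in the other two.

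Developmental lists stood both above and near the share of all genes. Tracheal development genes had members at 11 of 18 (61.1%, 38.6 to 79.7) and IDR promoter summits at 10, with 6 genes in both counts. In the replicates the count outside the IDR list was 11, 11 and 12. salm (spalt major, a zinc finger transcription factor) led at ranks 8001, 9066 and 8771, and sty (sprouty, a negative regulator of FGF and EGF receptor signalling) followed at ranks 27316, 5432 and 8396, low in replicate 3. stumps, an adaptor of the FGF receptor, was at ranks 20425, 10434 and 4097. Axon guidance genes had members at 12 of 22 (54.5%, 34.7 to 73.1) and IDR promoter summits at 11, with Sema1a, Con (connectin) and fra (frazzled, the netrin receptor) the strongest. Muscle structure genes had members at 12 of 20 (60.0%, 38.7 to 78.1) and IDR promoter summits at 4, with the tropomyosin gene Tm1 at ranks 10134, 8235 and 9817 and the transcription factor gene Mef2 at ranks 14934, 10976 and 9002. Gene length was not accounted for in these counts.

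Smaller lists of patterning genes had shares on both sides of that of all genes, which lay within each of their intervals. Members were at 2 of 8 Hox genes (25%, lab and abd-A), 3 of 16 head and brain patterning genes (18.8%, ems, slp2 and dac), 5 of 14 gap and pair-rule genes (35.7%) and 5 of 19 neuroblast and temporal factor genes (26.3%). The Hox count was 1, 2 and 7 in replicates 3, 4 and 5, so replicate 5 stood apart. odd (odd skipped) at ranks 11926, 7221 and 7796 and hry (hairy) at ranks 5950, 3375 and 5663 were the strongest pair-rule genes. The hry member was at pooled rank 9386, and hry also had 1 IDR promoter summit. Since an overlap of 1 bp counted, the replicate peaks at hry may have their summits elsewhere. The neuroblast gene insc (inscuteable), which orients asymmetric division, was at ranks 12498, 8169 and 12628.

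The remaining lists had shares from 3.36% to 25.9%. Odorant and gustatory receptor genes had members at 4 of 119 (3.36%, 1.31 to 8.32), cuticle protein genes at 11 of 117 (9.40%), chorion, vitelline membrane and yolk protein genes at 1 of 20 (5.00%, 0.888 to 23.6), and Jonah protease genes at 3 of 16 (18.8%, 6.59 to 43.0). IDR promoter summits were at 0, 2, 0 and 0 of these. The Jonah count in the replicates was 2, 0 and 0. Cytochrome P450 genes, which encode oxidising enzymes of hormone and toxin metabolism, had members at 21 of 81 (25.9%, 17.6 to 36.4) and IDR promoter summits at 3. Their count outside the IDR list was 24, 24 and 22 of 81 in replicates 3, 4 and 5. The shares of all protein-coding genes there were 24.4%, 25.6% and 26.8%. Cyp6a9 was the strongest, at ranks 13622, 10747 and 13282, and Cyp4d1 was uneven, at ranks 10306, 10852 and 28177. Among the P450 genes, 20 had members without an IDR promoter summit.

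**Figure D5:**
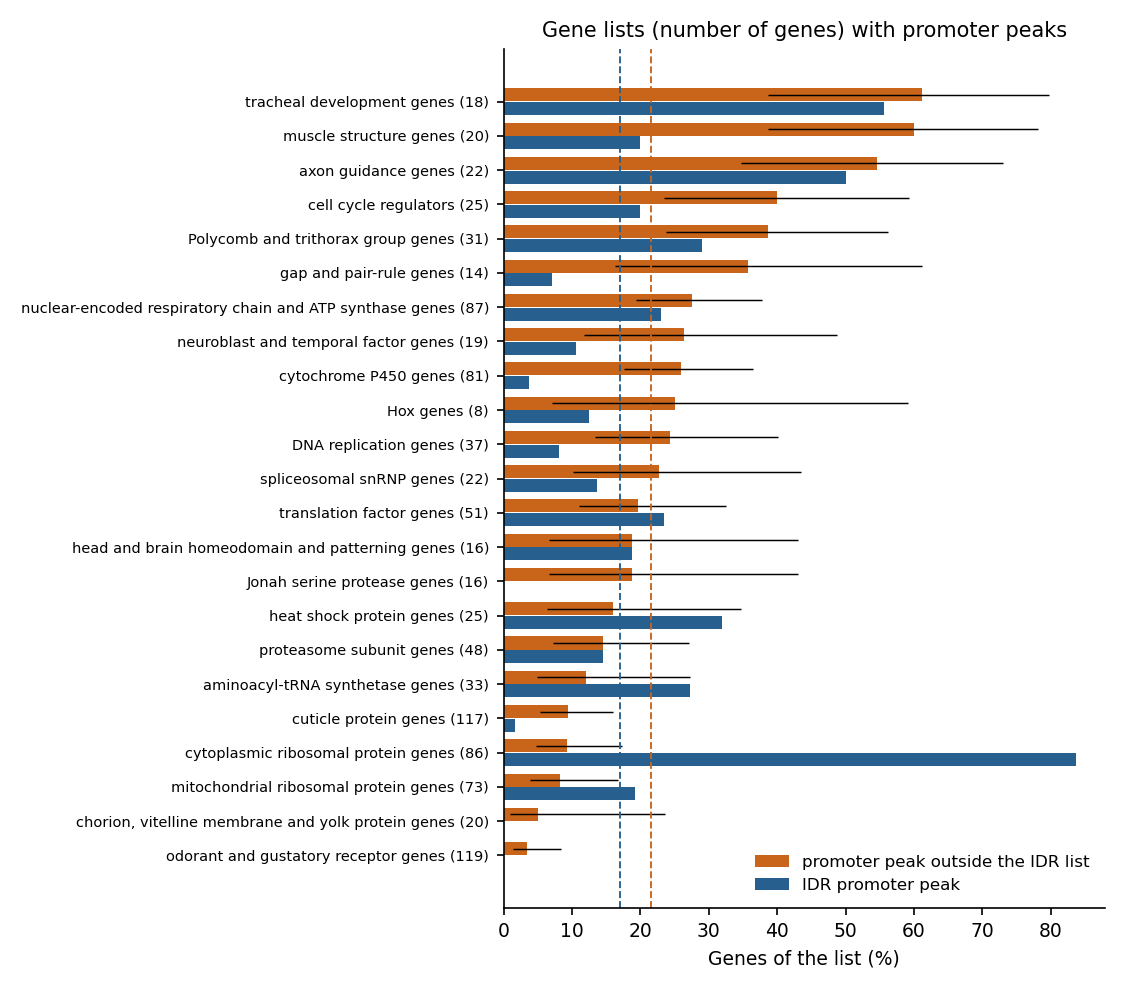
Percentage of the genes of each list (x axis) with a member (orange, with 95% Wilson intervals) or an IDR promoter summit (blue), with the number of genes in brackets and dashed lines at the shares of all protein-coding genes, 21.5% and 17.0%. Cytoplasmic ribosomal protein genes reach 83.7% in blue and 9.30% in orange, while cytochrome P450 genes reach 3.70% in blue and 25.9% in orange.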

How the data were processed

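Peak lists of 3 biological replicates were analysed. Per the file descriptions deposited with the samples, the authors called peaks on dm6 from each replicate and from all 3 together against 1 control, and derived the IDR list from these. The sources used here do not name the aligner, the caller, their versions or the IDR threshold. The deposited signal value per peak and the deposited −log10 q-value are the authors' own, and were used only within a list; the unit of the signal is not stated, and depth is unknown.

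Summits were joined to all start sites of 13945 protein-coding genes (Ensembl release 115; 19607 sites), with an overlap of 1 bp. Window bases came from the Release 6 reference; windows touching transcripts and arm 2R are not printed. Shares were compared by two-sided Fisher's exact tests, or by Cochran-Mantel-Haenszel tests in strata, with Benjamini-Hochberg adjustment within families of 4 or 3 features or 2090 words and a threshold of 0.05. Intervals of shares are 95% Wilson intervals, and their width reflects counting error alone. The word test was tested on simulated data. Nothing in the labels gives a batch. The members and lists were chosen with earlier results of these data known. Genes named are those of the 12 strongest and 4 weakest members, the 8 with most members, unpg and up to 3 per list, with those of the printed windows, of the boundary and of the strongest DRE members beside them. Of the list symbols 5 were not matched and 4 were matched by an older name. Alternatives varied the promoter distance, thresholds, overlap, replicates, GC strata, start sites and windows, and, added after seeing the data, width, overlapping peaks, genes and signal strata. Python 3.11.15, numpy 2.4.6, scipy 1.17.1, pandas 2.3.3 and matplotlib 3.10.9 were used.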

Additional observations from a re-analysis of the deposited data

How the results depend on the processing

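Of 111 alternative values, 96 kept the direction and the side of the threshold of the reported one, or stayed within its replicate SD or within 1.5 times its count, 13 moved, 2 no longer passed and 0 reversed. The 6-mer results were judged by total count alone, so a changed balance of higher and lower words was not labelled a reversal. The difference in mean GC was 7.55 points with promoters of 1000 bp, 6.89 at the q-value ceiling, 11.7 against the 1318 strongest IDR promoter peaks, 1.27 among fixed-width peaks (where the difference in windows under 35% GC, −4.12 points, no longer passed), and 7.76 to 7.9995 leaving out each replicate. The 993 6-mers separating members from IDR windows became 522 at the q-value ceiling, 7 at the fixed width and 6 with GC strata. Their balance changed as well: 690 were higher and 303 lower in members, against 0 and 7 at the fixed width and 1 and 5 with GC strata. The 28 separating stronger from weaker members became 3 to 6 without any 1 replicate, 4 within 250 bp of the start site and 12 with GC strata. In these GC and 6-mer runs, leaving out a replicate kept only peaks found in both others. Signal, summits and the IDR list stayed those of all 3 replicates. The q-value ceiling difference, 13.9 points, follows signal, so little of it could remain within signal deciles, where it did not pass. No conclusion is drawn from it, though its runs are counted among the 111. Apart from the construction of each alternative (fewer peaks, or strata), the cause was not tested. No paired analysis was possible because the labels give 1 group, so no samples pair across groups; the classes of peaks were compared within each replicate list. Peak lists of fixed length, with no read counts, limit all these shares, and a member absent from a replicate list may lie below the end of that list.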

Other observations

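The members were unevenly spread over the chromosome arms, described here with no test. On the X, 28.3% of protein-coding genes had a member, against 17.7% for 2L, 19.3% for 3R, 21.5% for 2R and 22.3% for 3L, while IDR promoter summits were at 16.0% to 18.0% of genes on these 5 arms. In the replicate lists the share of X genes with a promoter peak outside the IDR list was 28.4%, 30.7% and 32.3% in replicates 3, 4 and 5 (30.5% ± 1.97, SD, n = 3), and that of 2L genes 21.8%, 22.8% and 23.1% (22.6% ± 0.697). The X was highest of these 5 arms and 2L lowest in each replicate. Mean GC of member windows was 41.2% on the X and 40.9% on 2L. On the small chromosome 4, with 80 genes, the share was 15% in replicate 3 and 51.3% in each of replicates 4 and 5, so replicate 3 stood apart there, and 25% of its genes had a member in the pooled list. The sex of the embryos and the copy number of each arm were not analysed here.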
